A study of Mus musculus with 24 samples.

Results

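The genes Pou5f1, Sall4, Dppa2, Dppa3, Dppa4, Dppa5a, Utf1 and Tdh were followed through a 5-day time course of mouse optic vesicle (OV) organoids. These 8 general pluripotency genes were taken from the deposited table by gene symbol, out of 49705 gene entries, and all 8 passed the filter on low values. The 24 RNA-seq libraries formed 8 groups with 3 replicates each, namely unsplit live cells of days 0, 1, 2 and 3 and, from days 4 and 5, live cells divided by FACS into GFP-positive and GFP-negative. Every group came from a single line of mouse embryonic stem cells (mESCs), Rx-GFP K/I EB5, in which GFP is knocked in at Rax, an eye-field (EF) transcription factor gene, so that GFP reports Rax. Cells were maintained with LIF, and 4500 cells per organoid were plated on day 0. The labels give the differentiation medium of these samples as GMEM with 1.5% knockout serum replacement, whereas the study's methods name a chemically defined medium without growth factors for its initial organoids, so the medium is uncertain. Matrigel was added to 2% on day 1, and 24 organoids were pooled and dissociated for each sample. The gates of a day may come from the same pools, which the labels do not state library by library. Days 0 to 3 were not split by GFP, so a step from day 3 to a sorted day 4 sample also goes from all live cells to a gate.

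Mouse embryonic stem cells are held in a self-renewing state by transcription factors that bind the regulatory DNA of their own genes and of each other's. When the cells leave that state, the factors of the naive state are lost first, and Pou5f1, which encodes OCT4, is kept on for longer, through the epiblast-like state from which ectoderm, mesoderm and endoderm arise. Dppa genes (developmental pluripotency associated) were found by their expression with Pou5f1 in early embryos and stem cells, and the proteins of several of them act in chromatin or bind RNA.

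The RefSeq promoter table (GRCm38.p6) used here held 2 of the 8 genes, Utf1 with 1 window of 300 bases and Pou5f1 with 2, at the start of the gene and at a start inside it. The windows at the gene starts are printed because no other of the 8 genes had a window there. A link between these sequences and the levels of the 2 genes was not tested. Capitals mark the GC box letters GGGCGG. The Pou5f1 window is at chr17:35505782-35506081 and the Utf1 window at chr7:139943606-139943905, both on the plus strand.
Pou5f1: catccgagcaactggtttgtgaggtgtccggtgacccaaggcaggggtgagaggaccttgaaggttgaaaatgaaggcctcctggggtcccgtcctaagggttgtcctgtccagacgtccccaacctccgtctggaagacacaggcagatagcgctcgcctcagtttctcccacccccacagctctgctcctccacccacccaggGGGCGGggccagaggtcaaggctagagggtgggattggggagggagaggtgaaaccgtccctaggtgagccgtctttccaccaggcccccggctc
Utf1: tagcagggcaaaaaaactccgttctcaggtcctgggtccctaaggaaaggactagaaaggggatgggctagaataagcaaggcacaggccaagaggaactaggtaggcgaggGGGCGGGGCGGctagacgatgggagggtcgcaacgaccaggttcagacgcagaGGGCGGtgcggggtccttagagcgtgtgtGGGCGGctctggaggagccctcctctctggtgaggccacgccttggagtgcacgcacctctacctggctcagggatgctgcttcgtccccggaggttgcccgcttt
The GC box was found 4 times in the Utf1 window, where the first 2 matches overlap by 1 base, and 1 time in the Pou5f1 window. Of 32851 promoter windows in the table, 35.7% held the GC box on either strand. The octamer ATGCAAAT (1.74% of windows), the SOX letters CATTGT (12.6%) and the TATA letters TATAAA (13.6%) were not found on either strand of these 2 printed windows. The Utf1 window held 17 CpG dinucleotides and the printed Pou5f1 window 11, beside a median of 7 over all windows. The internal Pou5f1 window, at chr17:35508557-35508856 and not printed here, held 1 match to the SOX letters on the minus strand, no match to the other letters and 6 CpG dinucleotides. A match is a run of letters only, and factor binding was not measured in the data used here.

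In the coordinates of the table (mm10), Pou5f1 lies on chromosome 17 (35506018 to 35510772, plus strand), Utf1 on chromosome 7 (139943789 to 139945112, plus) and Sall4 on chromosome 2 (168748332 to 168767943, minus). Dppa4 (48283733 to 48294237) and Dppa2 (48303908 to 48319723) are neighbours on the plus strand of chromosome 16, with 9671 bases between them. Dppa3 lies on chromosome 6 (122626410 to 122630272, plus), Dppa5a on chromosome 9 (78367052 to 78368177, minus) and Tdh on chromosome 14 (63492347 to 63509092, minus). All 8 are annotated as protein coding in GENCODE M21, with the same start and end there.

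Values are DESeq2-normalized counts as the authors deposited them, and each library held 37100000 to 54500000 estimated reads. Replicates correlated with Spearman's rho of 0.953 to 0.993 across genes. Rax, the gene behind the GFP sort, stood at 9967, 9609 and 9100 in the day 4 GFP-positive libraries, and at 26.5, 39.2 and 16.9 on day 0. The 5 stem cell markers (Nanog, Sox2, Zfp42, Esrrb and Lin28a) summed to 73554 to 89102 on day 0, with Nanog at 16789.8, 13466 and 11108. A pair of libraries stood apart for several of the genes described here. Day 4 GFP-positive replicate 2 was the highest of its group for Pou5f1, Utf1, the 4 Dppa genes and Tdh, and also for Nanog (214 against 133 and 130), with Rax like that of its group. Day 0 replicate 1 was high for Dppa3 and Dppa5a and low for Tdh, and its Zscan4c, a gene of the 2-cell-like state, stood at 4654 against 1169 and 1269.8. Counts of calls are also given without these 2 libraries.

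**Figure D1:**
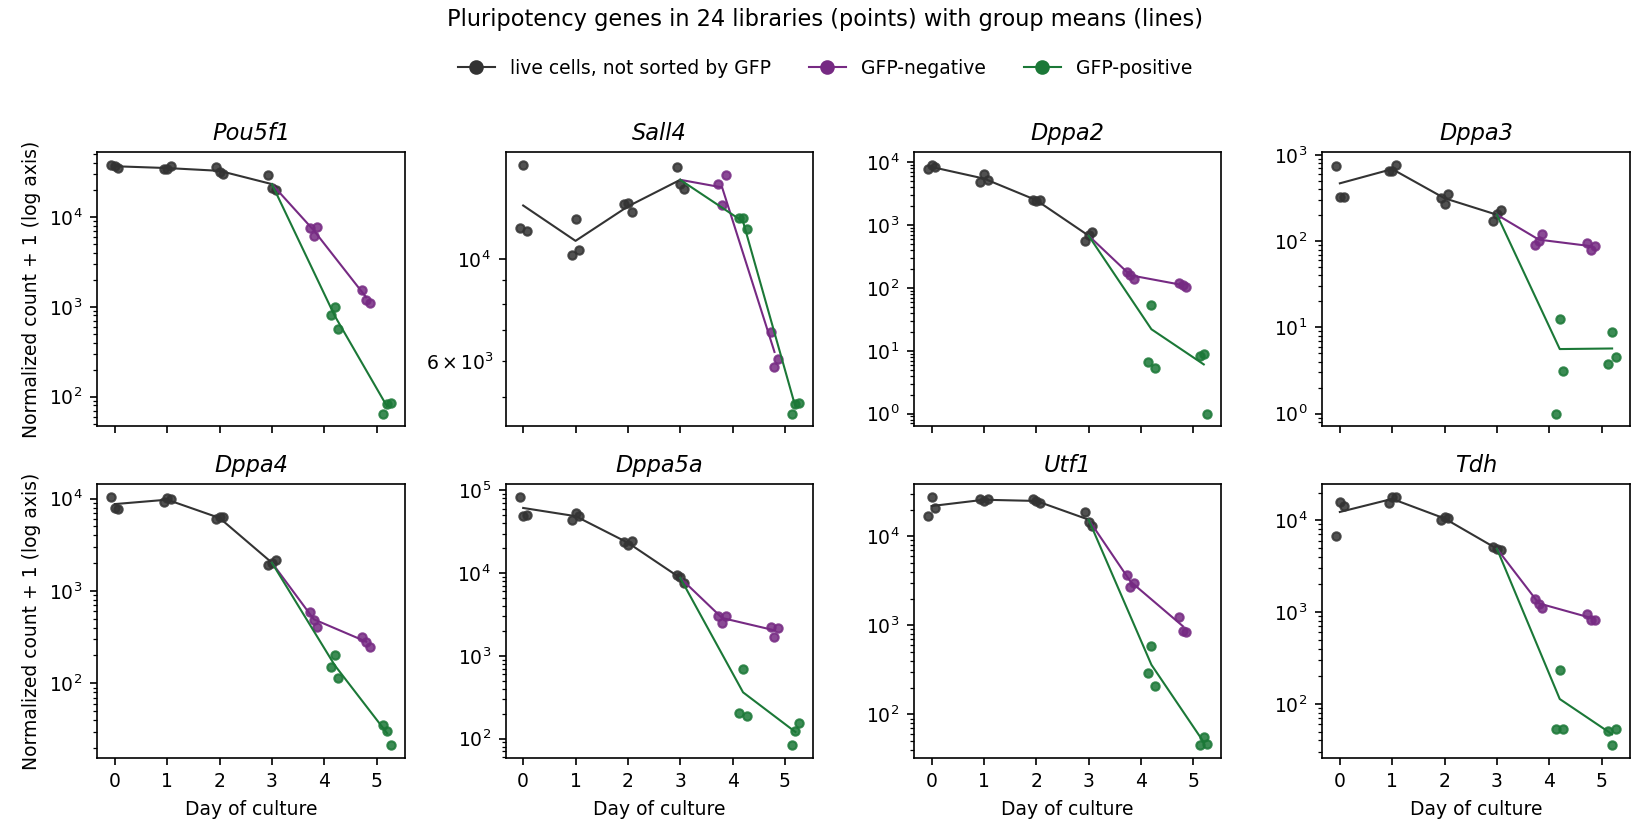
Normalized count + 1 (log axis) of each gene against day of culture, 1 point per library, with lines through the means of 3 replicates; black is live cells, purple GFP-negative and green GFP-positive, with the gates of a day set slightly apart. Apart from Sall4, the genes fall steeply after day 3 in the GFP-positive libraries and stay higher in the GFP-negative ones, whereas Sall4 stays between 11639 and 15910.3 through days 3 and 4.

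A gene was called when its limma adjusted p was below 0.001 and its log2-fold-change exceeded 1.5 in size, which are the thresholds the study used. Fold changes were fitted on log2(normalized count + 1) over 21005 genes. Between day 0 and day 3, 3 of the 8 genes fell past these thresholds and none rose, where 6.12% of all genes tested were called lower and 5.91% higher. The 3 were Dppa2, Dppa4 and Dppa5a. From day 3 to the day 4 GFP-positive cells, 7 of the 8 fell and none rose, where 7.36% of all genes were called lower and 3.33% higher, and Sall4 was the exception. The median log2-fold-change of the 8 was -1.17 over the first 3 days and -5.21 over that single step. Medians over all genes tested lay between -0.06 and 0.01 in the comparisons made here. In bulk samples, fewer cells expressing a gene and less of its RNA in each cell cannot be told apart, and this holds for every value below.

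Pou5f1 encodes OCT4, a POU-domain transcription factor that pluripotent cells need in order to remain so. It stood at 38139, 36593 and 35361 on day 0, at 34047, 34399.6 and 36653 on day 1 and at 35599.9, 31819 and 30447 on day 2. On day 3 it was at 28985, 20854 and 19799. The lowest day 2 library remained above all day 3 libraries, but the day 2 to day 3 difference was -0.51 ± 0.18 (log2-fold-change ± SE, limma adjusted p = 0.0617). Over 3 days Pou5f1 thus kept 63.3% of its mean day 0 level, and the log2-fold-change of -0.68 ± 0.18 (limma adjusted p = 0.00388) passed neither threshold.

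In the GFP-positive libraries Pou5f1 then stood at 811, 1005 and 560.0 on day 4 and at 63.7, 82.8 and 83.7 on day 5. No day 4 library reached the lowest of day 3, and no day 5 library reached the lowest of day 4. The step to day 4 was -4.89 ± 0.18 (29.7-fold lower, limma adjusted p = 1.96e-14), and the next step was -3.32 ± 0.18 (10.0-fold lower, limma adjusted p = 2.87e-10). By day 5 the GFP-positive cells held 0.209% of the day 0 level.

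GFP-negative cells still held Pou5f1 at 7449.6, 6176 and 7636 on day 4, below all day 3 libraries. The fall from day 3 was 3.24-fold (limma adjusted p = 7.98e-07). On day 5 the values were 1538, 1193 and 1094, a further fall of 2.48 ± 0.18 on the log2 scale (5.59-fold, limma adjusted p = 2.25e-08), so that 3.47% of the day 0 level was left. Between the gates, Pou5f1 was lower on the GFP-positive side by 9.15-fold on day 4 and by 16.4-fold on day 5.

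Utf1 encodes a chromatin-bound transcriptional regulator found in undifferentiated embryonic cells. Its values were 16727, 27969 and 20913 on day 0, 26445, 24837 and 25919.5 on day 1, 26229, 25067 and 23564 on day 2, and 18760.0, 14530.5 and 12894 on day 3. Days 0 and 3 overlapped (log2-fold-change -0.49 ± 0.26, limma adjusted p = 0.134). GFP-positive cells held 291, 583 and 208 on day 4 and 44.0, 54.2 and 45.2 on day 5, steps of 46.2-fold and 6.77-fold downward (limma adjusted p = 7.33e-13 and 3.37e-07).

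In GFP-negative cells Utf1 stood at 3661, 2666 and 2996 on day 4 and at 1236, 866 and 838 on day 5. These groups did not overlap with each other or with day 3. The falls were 4.93-fold to day 4 (limma adjusted p = 1.75e-06) and 3.19-fold to day 5 (limma adjusted p = 0.000169). The second call was lost without day 4 GFP-negative replicate 1 (adjusted p = 0.00212), or without day 5 GFP-negative replicate 2 (0.00167) or replicate 3 (0.00192), with the fall still between 1.55 and 1.60 on the log2 scale.

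The proportion of Pou5f1 to Utf1 varied little from day 1 to day 3. The ratio of their normalized counts (Pou5f1 over Utf1) lay between 1.27 and 1.55 in the 9 libraries of days 1 to 3, and at 2.28, 1.31 and 1.69 on day 0. In GFP-negative cells the ratio was 2.03, 2.32 and 2.55 on day 4 and 1.24, 1.38 and 1.31 on day 5. In GFP-positive cells it was 2.79, 1.73 and 2.69 on day 4 and 1.45, 1.53 and 1.85 on day 5. The lengths of the transcripts cancel when such a ratio is compared between libraries, whereas its size between genes has no meaning of its own.

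Sall4 encodes a zinc-finger transcription factor that acts with OCT4 in stem cells and is also used in later embryonic tissues. It was the gene of the 8 that stayed on. Sall4 stood at 11676, 16071 and 11545 on day 0, 10219, 12228 and 10449.9 on day 1, 13198, 13244 and 12667 on day 2, and 15910.3, 14577 and 14212 on day 3. On day 4 it was at 14586, 13158 and 15280.3 in GFP-negative cells and at 12282, 12314 and 11639 in the GFP-positive gate.

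The day 4 gates did not overlap for Sall4, but the difference was small (-0.25 ± 0.11, limma adjusted p = 0.177). The step from day 3 was -0.30 ± 0.11 to the GFP-positive gate (limma adjusted p = 0.0422) and -0.06 ± 0.11 to the other gate (limma adjusted p = 0.815, 95% interval -0.29 to 0.18). Sall4 fell later, in both gates. On day 5 the values were 6951, 5825 and 6054 in GFP-negative cells and 4606, 4834 and 4856 in the GFP-positive gate, below every day 4 library. These steps were -1.19 ± 0.11 and -1.34 ± 0.11 (limma adjusted p = 6.89e-07 and 7.82e-08), which passed the threshold on p and not that on fold. On day 5, 36.4% of the day 0 mean remained in the GFP-positive gate and 47.9% in the other. Relative to day 0, the GFP-positive cells of day 5 stood at -1.44 ± 0.11 for Sall4 on the log2 scale, and this passed the fold threshold without day 0 replicate 1 or day 0 replicate 3 (-1.52 in both fits).

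Dppa2 and Dppa4 encode related SAP-domain proteins that bind chromatin together and are known to keep developmental promoters open to activation in stem cells. The values of Dppa2 were 7796, 9149 and 8363 on day 0, 4837, 6455 and 5249 on day 1, 2518, 2451 and 2528 on day 2, and 554, 706 and 779 on day 3, with no overlap between successive days. The net fall to day 3 was 3.64 ± 0.67 on the log2 scale (12.5-fold, limma adjusted p = 0.000145), and no single step before day 3 was called in the fit across all groups. The first step, to day 1, was -0.62 ± 0.67 (limma adjusted p = 0.653). Without day 3 replicate 1 the adjusted p of the net fall was 0.00106, and the call was lost.

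Dppa4 was at 10521, 7874 and 7756 on day 0 and at 9215, 10099.9 and 9857 on day 1. It stood at 6007, 6241 and 6248 on day 2 and at 1906, 2005 and 2150.2 on day 3. Dppa4 thus held its day 0 level on day 1, and its largest step of the first 3 days was the last, a 3.05-fold fall from day 2 to day 3 (limma adjusted p = 1.19e-05). This was the sole call among the 8 genes in that step, where 0.29% of all genes were called lower. The net fall to day 3 was 4.27-fold (limma adjusted p = 1.94e-08).

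In GFP-positive cells Dppa2 stood at 5.69, 53.1 and 4.29 on day 4 and at 7.29, 7.91 and 0 on day 5. The level of 53.1 was that of the library that stood apart, and the values near 0 correspond to a few reads. The step from day 3 was 54.2-fold downward (limma adjusted p = 5.42e-07), and its log2 value lay between -6.82 and -5.15 when each library was left out in turn. Dppa4 was at 150.2, 204 and 113 on day 4 and at 34.0, 29.1 and 20.3 on day 5, falls of 13.3-fold and 5.41-fold (limma adjusted p = 3.03e-12 and 3.25e-08).

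In GFP-negative cells Dppa2 stood at 178, 157 and 139 on day 4 and at 118, 109.5 and 103 on day 5. Dppa4 was at 592, 478 and 405 on day 4 and at 318, 282 and 245 on day 5. All of these lay below day 3 and above the GFP-positive libraries of the same day. The fall of Dppa4 from day 3 was called (-2.05 ± 0.19, limma adjusted p = 1.75e-07). That of Dppa2 was of like size, 4.26-fold, with an SE of 0.67 and a limma adjusted p of 0.0328 in the fit over all groups, and with only the groups compared in the fit its adjusted p was 0.000204.

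On day 4 Dppa4 differed least between the gates of the 7 genes that were called (3.20-fold lower in GFP-positive cells, limma adjusted p = 1.71e-06), and on day 5 it differed 9.96-fold. The change of the gate difference between the days was -1.64 ± 0.27 on the log2 scale (limma adjusted p = 0.00268). It missed the threshold on p, which it passed without day 0 replicate 1 (0.000806). The other genes changed their gate difference by -1.08 to 0.88 between the days, with adjusted p of 0.141 or above. So 0 of the 8 genes were called in this test by limma, where 0.0333% of all genes were called lower, and 3 had an unadjusted p under 0.05.

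Dppa3 encodes a small protein known for guarding DNA methylation marks in the early embryo, and it marks germ cells as well as naive stem cells. It was the lowest of the 8 on day 0 per kilobase of merged exon. Its values were 753, 322 and 328 on day 0, 642, 643 and 769 on day 1, 316, 271 and 354 on day 2, and 172, 206 and 227 on day 3. Day 3 lay below every earlier library, but the net change of -1.10 ± 0.55 had a limma adjusted p of 0.116.

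In GFP-positive cells Dppa3 stood at 0, 11.7 and 2.15 on day 4 and at 2.72, 7.80 and 3.56 on day 5. The step from day 3 was -5.88 ± 0.55 (limma adjusted p = 2.45e-08), and since the values were near 0 it moved to -4.61 with a pseudocount of 5. It was -4.99 without day 4 GFP-positive replicate 1 and -6.83 without replicate 2. In GFP-negative cells Dppa3 was at 90.0, 101 and 119 on day 4 and at 94.4, 77.9 and 87.1 on day 5. These groups overlapped. The change from day 3 to day 4 was -0.96 ± 0.55 (limma adjusted p = 0.271) and that from day 4 to day 5 -0.25 ± 0.55 (limma adjusted p = 0.845). Dppa3 thus kept 22.1% and then 18.5% of its day 0 mean in GFP-negative cells.

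Dppa5a encodes a KH-domain RNA-binding protein of stem cells. Per kilobase it had the highest level of the 8 genes on day 0. Its values were 84121, 49196 and 50324 on day 0, 44118, 53654 and 48398 on day 1, 23891, 21798 and 24089 on day 2, and 9555, 8977 and 7686 on day 3. Days 1, 2 and 3 did not overlap with each other, and the net fall to day 3 was 6.81-fold (limma adjusted p = 8.36e-07).

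In GFP-positive cells Dppa5a stood at 205, 694 and 185 on day 4 and at 81.9, 121 and 155 on day 5. The step from day 3 was 29.2-fold downward (limma adjusted p = 1.96e-10), and without replicate 2, the library that stood apart, it was -5.47 in place of -4.87 on the log2 scale. In GFP-negative cells the values were 3068, 2505 and 3025 on day 4 and 2236, 1702 and 2166 on day 5. The step from day 3 was -1.61 ± 0.33 with a limma adjusted p of 0.00147, so it was not called. It was called without day 0 replicate 1 (adjusted p = 0.000618), day 4 GFP-positive replicate 2 (1e-05) or day 4 GFP-positive replicate 3 (0.000798). The next step, to day 5, was -0.50 ± 0.33 (limma adjusted p = 0.413, 95% interval -1.19 to 0.20).

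Tdh encodes threonine dehydrogenase, a mitochondrial enzyme that starts the breakdown of threonine to glycine and acetyl-CoA, on which mouse stem cells depend. It stood at 6681, 15954 and 14248 on day 0, 15203, 18101 and 17875 on day 1, 10049, 10701 and 10569 on day 2, and 5092, 4799 and 4765 on day 3. Day 0 replicate 1 was the low library of its group, yet above all day 3 libraries. The net change to day 3 was -1.24 ± 0.38 (limma adjusted p = 0.0115), and without both libraries that stood apart it was -1.63 (limma adjusted p = 1.28e-08), which would be a call.

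Tdh in GFP-positive cells was at 52.4, 231 and 52.3 on day 4 and at 50.1, 34.3 and 52.6 on day 5. The step from day 3 was 56.1-fold downward (limma adjusted p = 9.39e-11), and the next was -0.92 ± 0.38 (limma adjusted p = 0.153), with 231 in the library that stood apart. Without that library these steps were -6.52 in place of -5.81 on the log2 scale and -0.22. In GFP-negative cells Tdh stood at 1392, 1230.2 and 1102 on day 4 and at 939, 821 and 824 on day 5. The fall from day 3 was 3.95-fold with a limma adjusted p of 7e-04, close to the threshold. In 16 of the 24 fits that left out 1 library its adjusted p passed 0.001, up to 0.00469. These 16 left out a library of day 1, 2 or 3, any GFP-negative library, or day 5 GFP-positive replicate 1. The day 4 to day 5 difference was -0.52 ± 0.38 (limma adjusted p = 0.458, 95% interval -1.31 to 0.27).

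The enzymes that act beside Tdh were not called with it, though with 10 entries this is not far from the share of all genes. The list held Gcat, which completes the conversion of threonine to glycine, the glycine cleavage genes Gldc, Amt, Gcsh and Dld, and the 1-carbon genes Shmt1, Shmt2, Mthfd2 and Mthfd1l, in 10 table entries because Gcat has 2. From day 3 to day 4 GFP-positive, limma called 0 of 10, where 7.36% of all genes were called lower and 3.33% higher. Of the 10, 6 had an unadjusted p under 0.05. The median change of the 10 was -0.32 on the log2 scale beside -5.81 for Tdh. Mthfd1l (-1.11) and Shmt1 (-1.04) had adjusted p of 1.09e-06 and 1.42e-07 and missed the fold threshold. Gcsh stood at 0.75 in the other direction (limma adjusted p = 1.28e-06). Between the day 4 gates limma again called 0 of 10, with 6 at an unadjusted p under 0.05. There 3.63% of all genes were called lower.

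**Figure D2:**
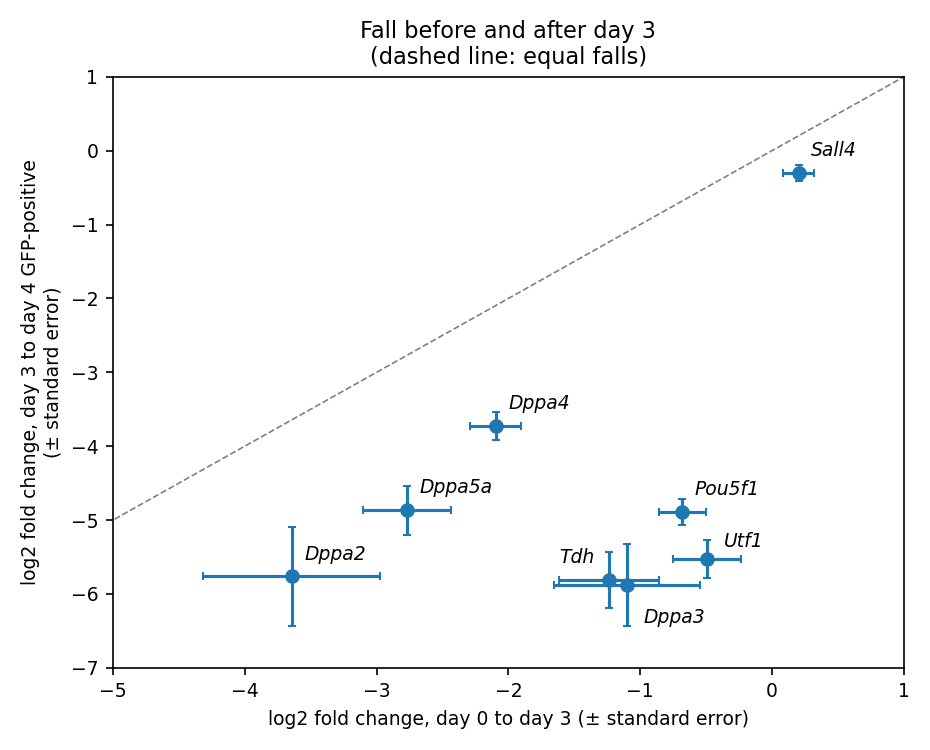
The step between day 3 and day 4 GFP-positive (vertical axis, log2-fold-change) against the net change between day 0 and day 3 (horizontal axis, log2-fold-change) for each gene, with standard errors as bars; on the dashed line both falls would be equal. All 8 genes lie below the line, Utf1 (-5.04) furthest from it, and Sall4 lies near the origin.

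The timing of the fall was compared as the step from day 3 to day 4 GFP-positive less the net change from day 0 to day 3. The first term also goes from all live cells to a gate, so effects of the sort and of time cannot be told apart here. To the GFP-negative gate the step was -2.30 for Utf1, -1.70 for Pou5f1 and -1.98 for Tdh. The difference between the GFP-positive step and the net change was called for 5 of the 8 genes, where 5.61% of all genes were called lower. It was -5.04 ± 0.45 for Utf1 (limma adjusted p = 2.87e-08), -4.21 ± 0.31 for Pou5f1 (2.01e-09) and -4.58 ± 0.66 for Tdh (1.78e-05). These 3 calls remained in every fit that left out 1 library. The count of 5 fell to 3 without a filter or without trend. With limma treat or with only the groups compared in the fit it was 2. Dppa3 (-4.78 ± 0.96, limma adjusted p = 0.000682) and Dppa4 (-1.63 ± 0.34, limma adjusted p = 0.000886) were close to the threshold. They lost their calls in 16 and 18 of the 24 fits without 1 library, with adjusted p up to 0.00582 and 0.00783. For Dppa2 (-2.12 ± 1.16, limma adjusted p = 0.206), Dppa5a (-2.10 ± 0.58, 0.00967) and Sall4 (-0.50 ± 0.20, 0.0685) it was not called. Without day 4 GFP-positive replicate 2 it was called for Dppa5a (-2.71, limma adjusted p = 1.24e-05).

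Shares were taken of the whole log2 fall from day 0 to day 5 GFP-positive, which also goes from all live cells to a gate. By day 3 Sall4 stood at -14.0%, with its day 3 mean above that of day 0. Utf1 had completed 5.61% and Pou5f1 7.66%. Tdh had completed 15.5% and Dppa3 17.3%, whereas Dppa4 (25.4%), Dppa5a (30.8%) and Dppa2 (33.2%) were further on. Without day 0 replicate 1 the shares were 7.48% for Utf1, 7.37% for Pou5f1, 19.4% for Tdh and 11.7% for Dppa3, so Utf1 and Pou5f1 changed places, as did Tdh and Dppa3. Those of Dppa4, Dppa5a and Dppa2 were then 24.1%, 28.8% and 33.5%, and that of Sall4 was -8.45%. By day 4 the share was 6.92% for Sall4, 62.7% for Pou5f1 and 68.6% for Utf1. It was 70.5% for Dppa4, 84.9% for Dppa5a, 85.7% for Dppa2 and 88.4% for Tdh. These shares include day 4 GFP-positive replicate 2, the library that stood apart. No share by day 4 is given for Dppa3, whose values of days 4 and 5 were near 0 and overlapped.

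**Figure D3:**
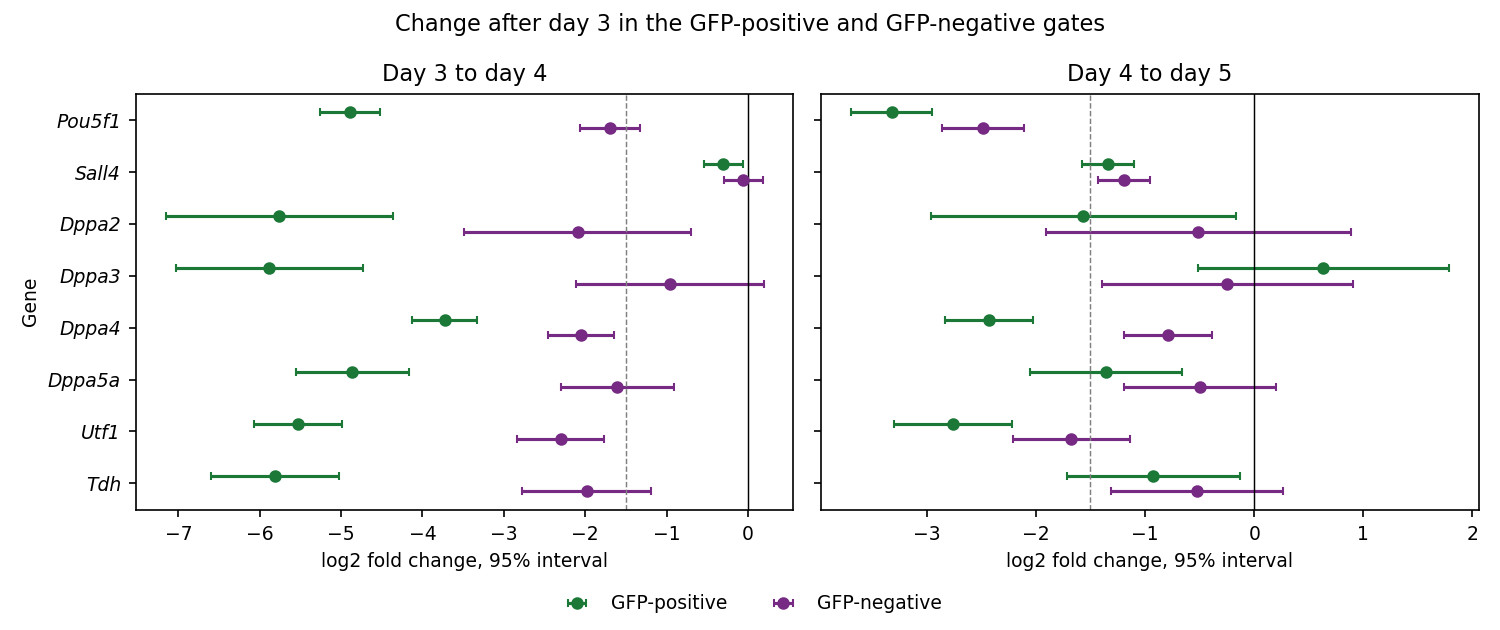
Log2-fold-change with its 95% interval for each gene, in GFP-positive (green) and GFP-negative (purple) cells, from day 3 to day 4 (left) and from day 4 to day 5 (right); the dashed line marks the fold threshold of -1.5. On the left the green and purple intervals are apart for all genes but Sall4, and on the right Pou5f1 and Utf1 are lowest among the purple points.

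The steps from day 3 to each day 4 gate share the 3 day 3 libraries. From day 3 to day 4 GFP-negative, 4 of the 8 genes fell past the thresholds, where 0.871% of all genes were called lower: Utf1, Dppa4, Tdh and Pou5f1. Between the gates on day 4, 7 of the 8 were called lower in GFP-positive cells, where 3.63% of all genes were. With limma treat the calls of Dppa2, Dppa4 and Dppa5a were lost on day 4, and with only the groups compared in the fit those of Dppa2, Dppa3, Dppa4, Dppa5a and Tdh (adjusted p from 0.00195 to 0.0144), which left 2 of the 8, Pou5f1 and Utf1. On day 5 it was again 7, where 4.61% were called lower. The 7 genes were the same on both days, and the sole gene not called was Sall4. Every GFP-positive library was below every GFP-negative library of its day for all 8 genes. The share of all genes separated in this way was not computed, and the shares above are those of calls.

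On day 4 the gate differences of the 7 genes ran from 3.20-fold for Dppa4 to 30.3-fold for Dppa3 (limma adjusted p = 1.17e-06). The value of Dppa3 (-4.92 on the log2 scale) rests on levels near 0, and it was -3.68 with a pseudocount of 5 and -4.04 without day 4 GFP-positive replicate 1. Without replicate 2 of that group, the library that stood apart, it was -5.87, and the differences of Dppa2, Tdh and Dppa5a were then -4.73, -4.54 and -3.87. Dppa2 was the least certain of them (-3.67 ± 0.67, limma adjusted p = 0.000418). Its call was lost without any 1 of the day 4 GFP-negative replicates 1 (adjusted p = 0.00275), 2 (0.00229) and 3 (0.00178), or day 4 GFP-positive replicates 1 (0.00474) and 3 (0.00514). Without day 4 GFP-positive replicate 3 the difference for Dppa4 was -1.47, inside the fold threshold. On day 5 the difference was 9.96-fold for Dppa4 and 26.5-fold for Dppa2 (limma adjusted p = 2e-05). The log2 value of Dppa2 (-4.73) was -3.69 without day 5 GFP-positive replicate 3, where its level was 0, and -3.64 with a pseudocount of 5. That of Utf1 was -4.31, and in both of these fits it was past that of Dppa2 (-4.28 and -4.20). The count of 7 held in each fit without 1 library. Dppa2 lost its day 5 call with only the groups compared in the fit (adjusted p = 0.00205) and with limma treat (0.00417), and Dppa3 lost it with limma treat (0.0063).

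Between day 4 and day 5 in the GFP-negative cells, Pou5f1 and Utf1 fell past the thresholds, 2 of the 8, where 0.509% of all genes were called lower. The 95% interval of Pou5f1 (-2.86 to -2.11) lay apart from those of Dppa5a (-1.19 to 0.20), Tdh (-1.31 to 0.27) and Dppa4 (-1.20 to -0.39). A test between genes was not made. In GFP-positive cells 3 of the 8 fell over the same day, Pou5f1, Utf1 and Dppa4, where 0.89% of all genes were called lower.

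**Figure D4:**
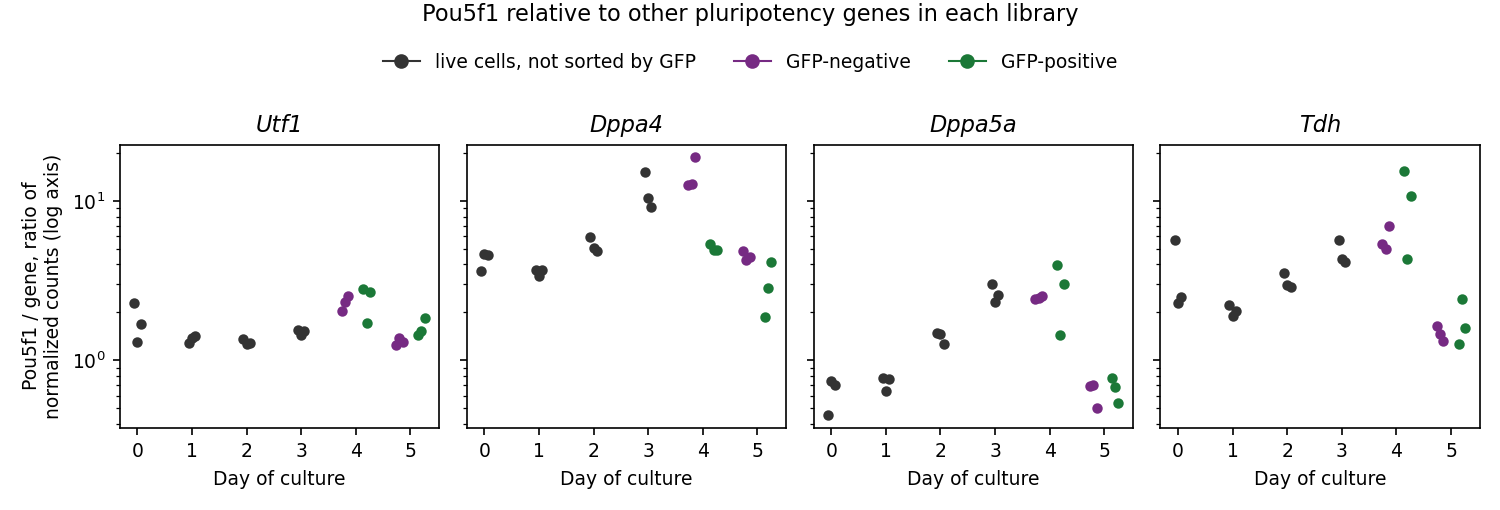
Ratio of the normalized count of Pou5f1 to that of Utf1, Dppa4, Dppa5a and Tdh (log axis) in each of the 24 libraries against day of culture, 1 point per library. The GFP-negative points of day 5 lie below those of day 4 in all 4 panels, by most for Dppa5a and Tdh.

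The ratio of Pou5f1 to Dppa5a was between 0.453 and 0.772 on days 0 and 1 and rose to 3.03, 2.32 and 2.58 on day 3, while Dppa5a fell. In GFP-negative cells it was 2.43, 2.47 and 2.52 on day 4, and 0.688, 0.701 and 0.505 on day 5, back in the range of the first days while both genes were far lower. The ratio of Pou5f1 to Tdh moved likewise, from 5.35, 5.02 and 6.93 on day 4 to 1.64, 1.45 and 1.33 on day 5. Both ratios were also lower on day 5 in GFP-positive cells. That to Dppa5a went from 3.96, 1.45 and 3.02 to 0.778, 0.682 and 0.541, and that to Tdh from 15.5, 4.35 and 10.7 to 1.27, 2.41 and 1.59, with no overlap between the days in either.

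Ordered by level per kilobase of merged exon, the genes on day 0 ran from Dppa5a (mean 98891 normalized counts per kilobase) through Utf1 (17824), Pou5f1 (16324), Dppa4 (5245), Tdh (4701), Dppa2 (3447) and Sall4 (2366) to Dppa3 (524). The ranges of Utf1 and Pou5f1 overlapped on day 0, as did those of Dppa4 and Tdh and of Tdh with both Dppa2 and Sall4. On day 5 in GFP-positive cells Sall4 led with 861 per kilobase, from rank 7 on day 0, followed by Dppa5a (193), Utf1 (39.0) and Pou5f1 (34.1), of which the last pair overlapped. In the day 5 GFP-negative cells Dppa5a remained first (3287) and Sall4 came second (1134).

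Over the whole course, 7 of the 8 genes were called lower in day 5 GFP-positive cells than on day 0, where 14.9% of all genes were. Sall4 was lower too (-1.44, limma adjusted p = 4.88e-10) but missed the fold threshold. In day 5 GFP-negative cells 6 of the 8 were called lower, where 10.4% of all genes were. Dppa3 was the gene that differed (-2.31 ± 0.55, limma adjusted p = 0.00118). It was called there without day 4 GFP-positive replicate 1 (5e-05) or replicate 2 (2.2e-05). In the main fit, with a pseudocount of 1, Dppa2 had the largest fall of all 21005 genes to day 5 GFP-positive. It was -10.97 ± 0.67 on the log2(value + 1) scale. With a level near 0 this value depends on the pseudocount, and it lay between -11.36 and -9.83 over the alternatives. From day 0 to day 1 limma called 0 of the 8 genes, where 0.395% of all genes were called lower, and 1 had an unadjusted p under 0.05. From day 1 to day 2 it again called 0, where 0.528% were called lower. At an unadjusted p under 0.05, 1 was higher (Sall4) and 2 were lower (Dppa4 and Dppa5a). A test against the fold threshold itself (limma treat) also called 0 in both steps, but it is stricter, so this adds no support. The shares of all genes in these early steps rest on few calls: the 111 genes lower from day 1 to day 2 were 30 to 171 when each library was left out in turn.

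GFP-negative cells also held markers of other lineages, and the gate differences of the pluripotency genes are given beside them. All 6 mesendoderm markers (T, Eomes, Mixl1, Gsc, Foxa2 and Sox17) were lower in GFP-positive cells on both days. Their summed level was 6277 to 9097 among GFP-negative and 315 to 656 in GFP-positive cells on day 4. On day 5 it was 3203 to 4194 and 203 to 285. Of 5 primitive endoderm markers (Gata4, Gata6, Sox7, Pdgfra and Dab2), 4 were called lower in GFP-positive cells on day 4 and 5 on day 5. On day 4 their sums were 4803 to 7819 in GFP-negative and 1680.3 to 2392 in GFP-positive cells. Of 5 trophoblast markers 2 and 3 were called lower in GFP-positive cells on days 4 and 5. All 5 were lower at an unadjusted p under 0.05 on both days. Of 4 neuron markers none was called on either day. Among all genes 3.63% and 4.61% were called lower on days 4 and 5. The 5 eye-field markers went the other way, all higher in GFP-positive cells on both days. No mesendoderm or primitive endoderm marker was at 0 in a whole group. Their part in the gate differences of the pluripotency genes was not tested.

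Naive pluripotency genes were also present in the GFP-negative cells. All 13 of the list (Nanog, Esrrb, Klf2, Klf4, Klf5, Tbx3, Tfcp2l1, Zfp42, Nr0b1, Prdm14, Fgf4, Tcl1 and Fbxo15) fell between day 0 and day 3, with a median log2-fold-change of -2.46, where 3 of the 8 genes described here did. All 13 fell again to day 4 GFP-positive (median -4.16) and were lower in the GFP-positive gate on both days. Among all genes 6.12% were called lower from day 0 to day 3 and 7.36% from day 3 to day 4 GFP-positive. Of the 13, 1 fell from day 3 to day 4 GFP-negative (median -0.98), beside 4 of the 8 and 0.871% of all genes. Of the 5 stem cell markers, Nanog, Esrrb and Zfp42 were called lower in GFP-positive cells on both days. Sox2 (0.52) and Lin28a (0.21) lay the other way on day 4 and were not called. The summed level of the 5 was 51936 to 58879 in GFP-negative and 59434 to 61620 in GFP-positive cells on day 4. On day 5 it was 38224.5 to 40716 and 44182 to 46027.5.

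The 7 germ cell markers, which bear on Dppa3 as a germ cell gene, were Prdm1, Tfap2c, Nanos3, Dnd1, Ddx4, Dazl and Kit. Of these, 2 were called lower in GFP-positive cells on day 4, where 3.63% of all genes were, and 3 on day 5 (4.61%). Their summed level in GFP-negative cells was 2984 to 3339.6 on day 4 and 4096 to 4370 on day 5. The sums in GFP-positive cells were 1849 to 2579 and 3443 to 4191. No germ cell marker was at 0 in a whole group, and their part in the level of Dppa3 was not tested.

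**Figure D5:**
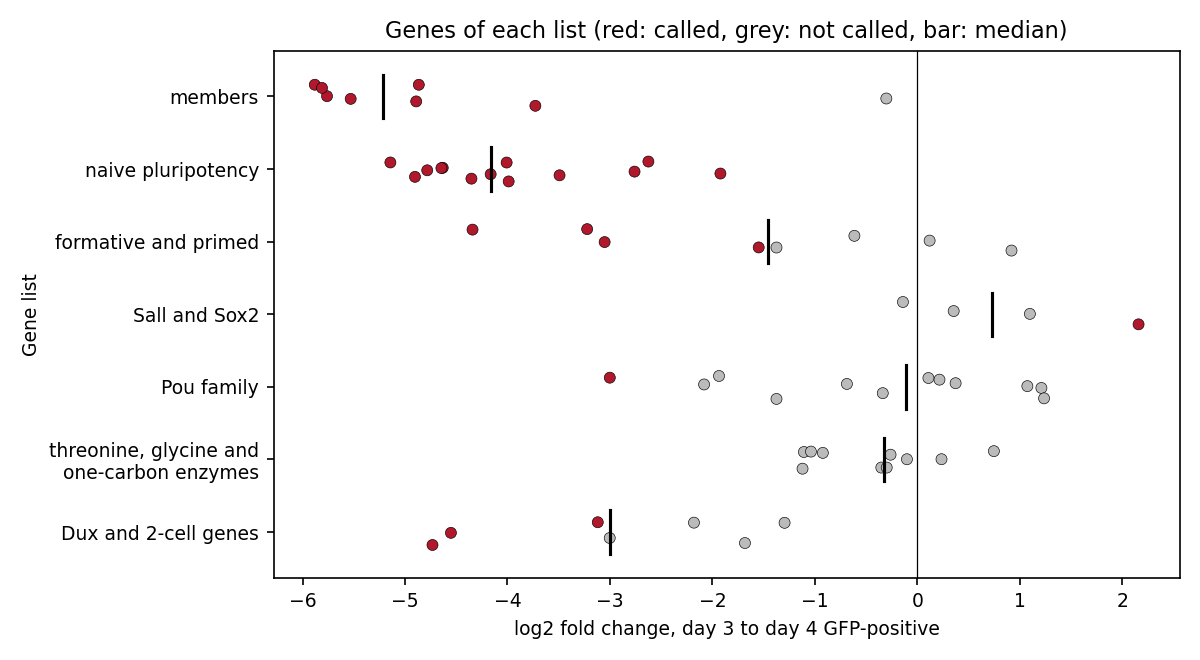
Change between day 3 and the GFP-positive cells of day 4, as log2-fold-change, for the genes of 7 lists, 1 point per table entry, red where called and grey where not, with the list's median as a bar. The naive pluripotency genes and the genes described here other than Sall4 (-0.30) lie to the left. The medians of the enzymes around Tdh (-0.32) and of the other Pou genes (-0.11) are near 0, with Pou genes on both sides and Sall3 (2.16) to the right.

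The relatives of Pou5f1 and Sall4 were followed in the same way. Of 14 other Pou genes, 12 passed the filter. From day 3 to day 4 GFP-positive 1 of the 12 was called lower and none higher, with a median of -0.11. This is near the share of all genes, 7.36% called lower and 3.33% higher. The 1 was Pou4f2, from a mean of 13.4 to 0.878 (limma adjusted p = 4.34e-06). Pou3f1, which neural progenitors use, stood at -1.37 ± 0.18 in that step (limma adjusted p = 3.57e-06). Sall2 and Sall3, of the same family as Sall4, rose between day 0 and day 3 by 2.78 ± 0.20 and 2.90 ± 0.23 on the log2 scale (limma adjusted p = 3.94e-10 and 2.22e-09). Sall3 rose further to day 4 GFP-positive, by 2.16 ± 0.23 (limma adjusted p = 1.54e-07). Sall1 had means of 13661 on day 3, 12356 on day 4 GFP-positive and 5379.6 on day 5 GFP-positive. Its steps were -0.14 ± 0.16 to day 4 and -1.20 ± 0.16 to day 5 (limma adjusted p = 0.548 and 3.15e-05), beside -0.30 and -1.34 for Sall4. Sox2, the partner of OCT4 on DNA, stood at 0.36 ± 0.14 from day 3 to day 4 GFP-positive (limma adjusted p = 0.0469).

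Of 8 genes of the formative and primed states, 4 rose between day 0 and day 3 (Fgf5, Otx2, Dnmt3b and Sox3) and 1 fell (Etv4). Among all genes 5.91% were called higher and 6.12% lower there. From day 3 to day 4 GFP-positive 4 fell (Fgf5, Dnmt3b, Etv4 and Dnmt3a) and none rose, beside 7.36% and 3.33% of all genes. Fgf5, a marker of the epiblast after the naive state, fell by 4.34 ± 0.21 in that step (limma adjusted p = 8.39e-13), in size between Dppa4 and Dppa5a.

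DPPA2 and DPPA4 are known activators of Dux and of Zscan4 genes, which mark the 2-cell-like state. Of 8 such genes 7 were in the table. Of these, 5 fell between day 0 and day 3 (median -3.71) and 3 from day 3 to day 4 GFP-positive, beside 6.12% and 7.36% of all genes. Limma called 0 of the 7 between the day 4 gates, where 5 were lower at an unadjusted p under 0.05 and the median was -2.49. On day 5, 1 was called lower in GFP-positive cells. Among all genes 3.63% and 4.61% were called lower between the gates of days 4 and 5. The summed level of the 7 varied between replicates of a group, from 4215 to 14591 on day 0 and from 1768 to 10496 on day 1. Ooep, which lies beside Dppa5a, and Khdc3 encode KH-domain proteins of the egg. Ooep and Khdc3 fell by 3.06 ± 0.34 and 4.24 ± 0.38 between day 0 and day 3 (limma adjusted p = 2.36e-07 and 1.38e-08). From day 3 to day 4 GFP-positive they fell again, by 3.98 and 4.23. The mean of Khdc3 was 3737 on day 0 and 195 on day 3.

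The 2 nearest measured genes on each side of each member made 28 distinct other genes. From day 3 to day 4 GFP-positive 5 of them were called lower and none higher, with a median of -0.48. In that step 7.36% of all genes were called lower and 3.33% higher. The 5 were Morc1 beside Dppa2 and Dppa4, Gdf3 beside Dppa3, Ooep beside Dppa5a, Kndc1 beside Utf1 and Gm17232 beside Tdh. Morc1, a gene of germ line transposon silencing, stood at -5.48 on the log2 scale (limma adjusted p = 1.35e-10), beside -5.76 for Dppa2. The neighbours of Sall4, and of Pou5f1 other than Gm19553 (-2.91, limma adjusted p = 0.00225), lay between -1.07 and 0.95. Gm19553 lies within Pou5f1 and shares sequence with it, so its reads cannot be told apart from those of Pou5f1 over that stretch. Gm17232 lies within Tdh and shares 0.375% of the 31-base words of Tdh, and Gm14261 overlaps Sall4 and shares 8.39%, so the same doubt holds for them, without strand being stated.

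By the correlation of log2 group means over the 8 groups, given as a description across 7524 genes that passed the filter and varied by at least 2 on the log2 scale, Dppa2 was most like Gdf3, Rpl39l and Mageb16 (Pearson's r of 0.9995, 0.9994 and 0.999). Dppa5a was most like Mageb16, Gdf3 and Nr0b1, and Dppa4 like Tdrd12, Gm14058 and Slc47a2. Gm14058 holds 28.7% of the 31-base words of Dppa4, so its values and those of Dppa4 may rest on the same reads. Pou5f1 was most like AI661453, Mup6 and Ankrd31 (0.9946, 0.9945 and 0.994), and Utf1 like Pramel1, Rbm44 and Psmb8. Tdh was most like Pramef12, Dnah12 and Epp13, and Dppa3 like Birc3, Gm9112 and Enc1. Sall4 had the weakest match, with Foxr2 (0.9749), Ahr and Prune2. Among the genes themselves, Dppa2 and Dppa5a reached 0.999 and Pou5f1 and Utf1 0.995, and Sall4 lay between 0.483 and 0.792 with the other 7. The 8 points of each correlation are group means of the same libraries.

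Several of the genes share sequence with other annotated genes, so that reads could be divided between them in ways not stated. Of all 31-base words in the GENCODE M21 transcripts of Dppa5a, 57.2% also occur in other genes, among them Dppa5b, Dppa5c and Pigp. The share was 40.1% for Dppa4, 33.8% for Dppa2, 29.6% for Dppa3, 17.1% for Tdh, 14.2% for Pou5f1 and 8.39% for Sall4. Utf1 shared none. Dppa5b, tested as a near copy, had means of 32.1 on day 0 and 4.00 on day 3, beside 61214 and 8739 for Dppa5a. Levels of the genes with shared sequence are uncertain to that extent.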

How the data were processed

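RNA-seq libraries (polyA RNA, TruSeq) were made from 24 samples in 8 groups of 3. The authors quantified reads with kallisto 0.43.1 against Ensembl coding and non-coding RNA of mm10, and deposited DESeq2-normalized counts, a signal per gene in units of size-factor-scaled reads. Which DESeq2 version the authors ran, whether strand was used and how reads common to near-identical transcripts were divided is not given in the sources used here. Columns of the authors' own calls in the table hold their gene sets and were not used.

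Groups and replicate numbers follow the labels. Nothing in the labels says how cultures were separated, so p-values measure the spread between these samples. Members were selected by symbol from the table. The members and gene lists were chosen with earlier results of these data known. The 21005 genes reaching 10 in 3 or more libraries were fitted as log2(value + 1) by limma (version 3.58.1, R 4.3.3; eBayes with trend), in a single fit of all 24 libraries on group, which pools the spread over groups, with Benjamini-Hochberg adjustment over all genes within each of the 14 contrasts. Fold changes are on the log2(value + 1) scale, which understates changes of low genes. The model was tested on simulated data.

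Library totals were 39849111 to 51587535 normalized counts. Between 45.9% and 77.0% of low values were within 0.1 of a whole multiple of the estimated worth of 1 read, and since whole reads could not be recovered, count models were left out. The estimated 37100000 to 54500000 reads per library limit mostly the genes near 0, where 1 read is worth 0.796 to 1.39.

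Named genes are the members, for each member the 3 most alike genes by group means and the 2 nearest tested genes on each side, and genes of the lists where a result turns on them. Coordinates and sequences are from the table, GENCODE M21 and RefSeq. The alternatives tried were a pseudocount of 0.5 or 5, no filter or one of 50, quantile normalization, no trend, a replicate block, limma treat, other thresholds, only the groups compared, and leaving out each library. Figures were drawn with matplotlib.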

Additional observations from a re-analysis of the deposited data

How the results depend on the processing

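The count of members called from day 3 to day 4 GFP-positive (7) was the same in every alternative and in every fit without 1 library. With limma treat, which tests against the fold threshold, the counts fell to 0 for day 2 to day 3, day 0 to day 3, day 3 to day 4 GFP-negative and GFP-negative day 4 to day 5, to 1 for GFP-positive day 4 to day 5, to 4 and 5 for the day 4 and day 5 gates and to 2 for the timing difference (the step after day 3 against the net change before it). Over all genes, treat called 154 lower from day 0 to day 3 in place of 1286, 464 in place of 1545 from day 3 to day 4 GFP-positive, 0 in place of 183 to day 4 GFP-negative, and 99 and 158 in place of 763 and 968 between the gates of days 4 and 5. With only the groups compared 384, 106 and 327 genes were called from day 0 to day 3, from day 3 to day 4 GFP-negative and between the day 4 gates, and quantile normalization gave 569 between the day 5 gates. With only the groups compared in the fit, 2 members were called from day 2 to day 3, 2 between the day 4 gates, 6 between the day 5 gates, 6 in place of 4 from day 3 to day 4 GFP-negative, 1 in GFP-negative day 4 to day 5 and 2 in the timing difference, where fewer samples gave the estimate of the spread. With an adjusted p under 0.05 and a log2-fold-change above 1 the counts were 1 (day 1 to day 2), 2 (day 2 to day 3), 4 (day 0 to day 3), 6 (day 3 to day 4 GFP-negative), 5 and 3 (GFP-positive and GFP-negative day 4 to day 5), 8 (day 0 to day 5 in both gates), 1 (change of the gate difference) and 6 (timing difference). The shares of all genes given above belong to the stricter thresholds and do not apply to these counts. Without a filter or without trend the timing difference was called for 3 members, the cause of which was not tested.

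Leaving out each library in turn gave 2 to 3 members for day 0 to day 3, 3 to 5 for day 3 to day 4 GFP-negative, 5 to 7 for the day 4 gates, 1 to 2 for GFP-negative day 4 to day 5, 7 to 8 and 6 to 7 for day 0 to day 5 GFP-positive and GFP-negative, 0 to 1 for the change of the gate difference and 3 to 6 for the timing difference, with no other count changed. Over all genes, such fits moved the numbers called lower by over 1.5 times in some steps: from 83 to between 49 and 86 (day 0 to day 1), 111 to 30 and 171 (day 1 to day 2), 61 to 26 and 96 (day 2 to day 3), 183 to 102 and 225 (day 3 to day 4 GFP-negative), 107 to 71 and 124 (GFP-negative day 4 to day 5) and 7 to 5 and 25 (change of the gate difference). Without day 4 GFP-positive replicate 2 and day 0 replicate 1 together, chosen after seeing the data, the counts were 4 for day 0 to day 3, 7 for day 3 to day 4 GFP-positive, 5 for day 3 to day 4 GFP-negative, 7 in both gates and 6 for the timing difference. The signs that reversed were those of uncalled differences. Sall4 from day 3 to day 4 GFP-negative became 0.034 with quantile normalization and 0.005 without day 4 GFP-negative replicate 2, in a range of -0.103 to 0.005 over the fits without 1 library. Without day 4 GFP-positive replicate 2, alone or with day 0 replicate 1, the change of the gate difference became 0.307 for Tdh and 0.007 for Dppa2, in ranges of -0.755 to 0.307 and -1.67 to 0.007. Without day 4 GFP-positive replicate 1 it became -0.004 for Dppa3, whose step from day 4 to day 5 in GFP-positive cells became -0.252. Over all such fits these lay between -0.004 and 1.828 and between -0.252 and 1.58.

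It is not stated whether equal replicate numbers mark shared pools, as they may for the gates of a day. Libraries with the same number deviated from their groups' means with correlations that had a mean of 0 (range -0.284 to 0.401), and in 1 of 28 pairs of groups every correlation was above 0.1. With the replicate block the timing difference was called for 4 members, and the other 13 counts were unchanged, those of 7 in both gates among them. Depth limits Dppa2 and Dppa3 in GFP-positive cells, where a few reads decide a value.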
